A study of Mus musculus with 15 samples.

Results

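The genes described here form the major histocompatibility complex (MHC) class I pathway and the immunoproteasome in mouse liver. The 10 members were fixed by symbol and read from the deposited gene tables, in which they are 10 of 35275 genes. They are the class I heavy chains H2-K1 and H2-D1, their light chain B2m, the peptide transporter subunits Tap1 and Tap2, the loading factor Tapbp, the inducible proteasome subunits Psmb8, Psmb9 and Psmb10, and the transactivator Nlrc5. Whole-liver mRNA of C57BL/6 mice was sequenced, from pieces of the left lateral lobe. EOD mice fasted for 24 h every other day (5 libraries), IF16 mice fasted intermittently for 16 h (5 libraries), and AL mice ate ad libitum (5 libraries). Mice of all 3 groups were assigned at random, entered at 3 months of age and were 6 months old when their regimen of 3 months ended. The labels name no allele or drug for any group, the time between the last meal and tissue collection is not in the labels, and the labels do not state that each library is its own mouse. A p-value here therefore describes the spread between libraries, which may be partly technical.

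Class I molecules display peptides of cytosolic proteins to CD8 T cells on nearly every nucleated cell, and hepatocytes carry them at a low basal level. Proteasomes cut the proteins. In the immunoproteasome, inducible catalytic subunits take the place of the constitutive ones. The peptides enter the endoplasmic reticulum through the TAP transporter and are loaded, with tapasin, onto a heavy chain paired with beta-2-microglobulin. Interferon-gamma induces most of these genes, in part through IRF1, and NLRC5 acts on a shared promoter element named the SXY module.

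All 10 members are protein coding, and the following coordinates are those of the deposited table, build mm10. On chromosome 17, within the MHC, lie Tapbp (33915899 to 33929288, plus strand), H2-K1 (33996017 to 34000333, minus), Psmb9 (34181988 to 34187764, minus), Tap1 (34187553 to 34197225, plus), Psmb8 (34197721 to 34201454, plus), Tap2 (34203527 to 34216321, plus) and H2-D1 (35262730 to 35267499, plus). B2m lies on chromosome 2 (122147686 to 122153083, plus), Psmb10 on chromosome 8 (105935728 to 105938392, minus) and Nlrc5 on chromosome 8 (94472763 to 94527272, plus). Psmb9 and Tap1 overlap by 212 bases on opposite strands. Tapbp shares 3421 bases of the same strand with Zbtb22, which had a mean of 302 counts per library against 2284 for Tapbp. Each other gene overlapping a member had a mean under 2 counts. The sources used here do not give the strand setting of the counting. H2-K1 and H2-D1 are close relatives of each other and of the H2-Q and H2-K2 genes, and reads may have been split among them, which makes the levels of both uncertain.

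The promoters of the heavy chains, of B2m and of the divergent pair Tap1 and Psmb9 are shown because the windows of these genes hold both TGACG and CCAAT, letters found in the SXY module. The sequences are from RefSeq, build GRCm38.p6, given 5' to 3' in the direction of the gene, and for Tap1 and Psmb9 in the direction of Tap1. Capitals mark TGACG and CCAAT (the letters just named), AANTGAAA (an interferon-response core) and GGGNNNNNCC (an NF-kappaB core), searched on both strands.
The H2-K1 stretch is chr17:34000348-34000547 on the minus strand, the H2-D1 stretch chr17:35262894-35263093 on the plus strand, the B2m stretch chr2:122147487-122147686 on the plus strand, and the stretch between the RefSeq starts of Tap1 and Psmb9 is chr17:34187331-34187555 on the plus strand.
H2-K1: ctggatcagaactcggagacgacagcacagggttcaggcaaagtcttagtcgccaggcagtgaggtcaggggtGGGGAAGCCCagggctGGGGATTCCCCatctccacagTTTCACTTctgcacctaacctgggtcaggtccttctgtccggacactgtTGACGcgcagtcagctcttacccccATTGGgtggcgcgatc
H2-D1: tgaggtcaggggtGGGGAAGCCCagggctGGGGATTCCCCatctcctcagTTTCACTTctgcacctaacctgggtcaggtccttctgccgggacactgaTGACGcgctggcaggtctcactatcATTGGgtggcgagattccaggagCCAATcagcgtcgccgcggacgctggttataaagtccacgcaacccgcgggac
B2m: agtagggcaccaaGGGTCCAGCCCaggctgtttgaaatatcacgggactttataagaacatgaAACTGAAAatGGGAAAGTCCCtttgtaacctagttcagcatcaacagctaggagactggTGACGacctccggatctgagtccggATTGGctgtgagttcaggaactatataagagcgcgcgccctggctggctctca
Tap1 and Psmb9: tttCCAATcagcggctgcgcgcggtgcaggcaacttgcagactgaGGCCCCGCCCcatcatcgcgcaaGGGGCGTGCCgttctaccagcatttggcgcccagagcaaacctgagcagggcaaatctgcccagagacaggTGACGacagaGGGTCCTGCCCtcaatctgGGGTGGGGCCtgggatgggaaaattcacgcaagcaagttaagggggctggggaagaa
The H2-K1 and H2-D1 stretches had 128 identical bases in 141 aligned columns (90.8%). RefSeq windows of 300 bases, from 250 before to 50 after a start, were matched for 8 members, and Tap2 and Nlrc5 are named only. Both TGACG and CCAAT occurred in the windows of 5 members (Tap1, Psmb9, B2m, H2-K1 and H2-D1). The windows of Tap1 and Psmb9 overlap and hold the same TGACG and the same CCAAT. With H2-K1 and H2-D1 also alike, the 5 are not independent sequences. The order of TGACG and CCAAT was not the same in all 5. In H2-K1, H2-D1 and B2m, TGACG was followed by ATTGG, the reverse complement of CCAAT (B2m positions -78 to -74 and -53 to -49). In the stretch of Tap1 and Psmb9, CCAAT (Tap1 positions -222 to -218) lay before TGACG (-86 to -82). Order and distance of these motifs were not part of the search. Of all 32851 windows, 7.73% held both, 20.8% held TGACG and 37.4% held CCAAT. AANTGAAA occurred in 6.58% of all windows and, among the members with a window, in those of B2m, H2-K1 and H2-D1, so that Tap1 and Psmb9 had no match to it. GGGNNNNNCC occurred in 50.8% of all windows and in those of the 5 members that held both TGACG and CCAAT. The motifs can share bases, as GGGNNNNNCC does with its own reverse complement, and a match is a description of letters and not of binding.

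Library totals were 28129883 to 38147534 counts, so that 3 counts stand for 0.0786 to 0.107 CPM, a count set to the same total in each library, and all 10 members passed the filter on low counts. Hepatocyte marker transcripts summed to 86574 to 115293 CPM in EOD, 103512 to 132716 CPM in IF16 and 85775 to 105747 CPM in AL libraries, with none of the 8 markers absent. Alb made up most of each sum, at 63117 to 87050 CPM in EOD, 72519 to 100550 CPM in IF16 and 58174 to 76281 CPM in AL libraries. The sum therefore mainly follows Alb. AL replicates 4 and 5 stood apart from AL replicates 1 to 3. They held 36561 and 53584 CPM of 15 summed acute-phase transcripts, against 9875 to 11444 CPM in the other AL libraries, and 30.7 and 28.3 CPM of neutrophil markers, against 1.29 to 1.66 CPM. The acute-phase sum was 13600 to 17857 CPM in EOD and 11902 to 13834 CPM in IF16 libraries. Every EOD and IF16 library thus lay above AL replicates 1 to 3 and below AL replicates 4 and 5 in that sum. EOD replicate 5 had 10.1% mitochondrial counts, against 5.34% to 6.83% in the other EOD libraries, 8.98% to 11.5% in IF16 libraries and 10.01% to 15.1% in AL libraries. The mitochondrial share was thus below every IF16 and AL library in the EOD libraries other than replicate 5, and its part in the results was not tested. For the members and for the counts and named genes of the pathway lists, values without these libraries are given where a printed call is lost or gained.

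Across the pathway, EOD livers had lower levels than AL livers in 8 of 10 members, and no member was higher. The difference was largest for Psmb9 and Tap2, intermediate for Psmb10, Tap1, Psmb8 and Tapbp, and small for B2m and H2-K1, while Nlrc5 and H2-D1 did not pass the test. These 8 calls stand beside 17.6% of all 13837 tested genes called lower in EOD than AL livers, and 35.2% called in either direction (edgeR's quasi-likelihood test, Benjamini-Hochberg adjusted p under 0.05). The members' median log2 fold change was -0.72, against -0.011 over all genes tested. In the same 8 members every EOD library lay below every AL library in CPM scaled by the trimmed mean of M values (TMM), as was the case in 10.1% of all tested genes. The members were chosen with earlier results of these data known, so these shares describe the list and do not test it. The members called were 7 when AL replicates 4 and 5 were left out together, since H2-K1 no longer passed, and 9 when EOD replicate 5 was left out, since Nlrc5 then passed.

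IF16 livers differed from AL livers in 1 of 10 members, Tap1, which was lower; 2.1% of all tested genes were called lower and 3.5% in either direction, while 1.4% were called higher. The median log2 fold change of the members was -0.18, against -0.00048 over all tested genes, and 3 members (Tap2, Psmb9 and B2m) had every IF16 library below every AL library on the CPM scale, a pattern seen in 3.19% of all tested genes. EOD livers were lower than IF16 livers in 5 of 10 members (Tap2, Psmb9, Psmb10, Psmb8 and Tapbp), with none higher; 8.15% of all tested genes were called lower and 16.1% in either direction, while 7.96% were called higher. The median log2 fold change of the members was -0.36 in that comparison, against -0.0031 over all tested genes. In those 5 members all EOD libraries lay below all IF16 libraries in CPM, as in 6.26% of all tested genes. Both fasting groups were compared with the same AL libraries, so the comparisons are not independent.

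**Figure D1:**
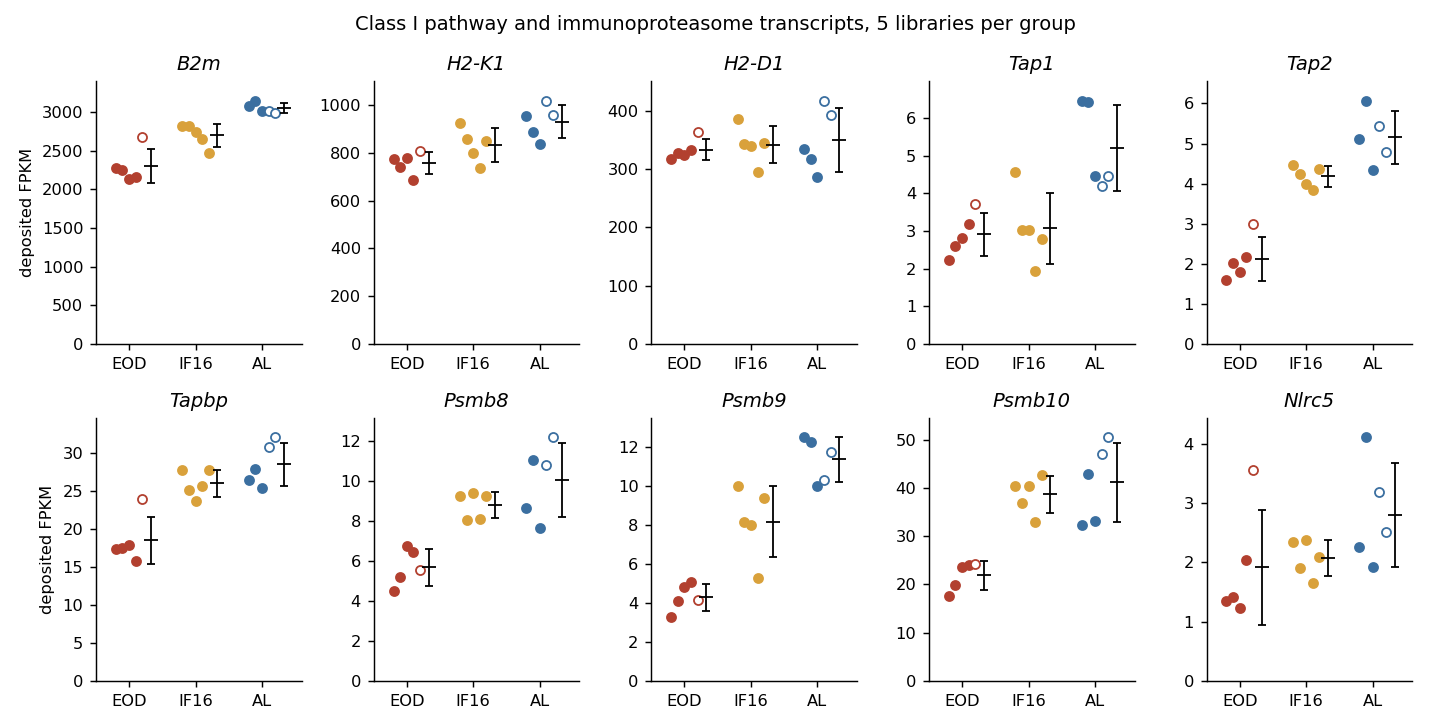
Deposited FPKM of the 10 members by group (EOD, IF16, AL), 1 point per library with the mean and SD of 5 libraries to the right; open points are AL replicates 4 and 5 and EOD replicate 5. EOD points lie below all AL points for every member except H2-D1 and Nlrc5.

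FPKM are scaled by gene length as well as library total, and permit levels of different genes to be set side by side. They carry no TMM factor, so groups that overlap in FPKM may not overlap in the TMM-scaled CPM given above. In AL livers the mean FPKM ran from 3046 for B2m through 931 for H2-K1, 349 for H2-D1, 41.2 for Psmb10 and 28.5 for Tapbp to 11.4 for Psmb9, 10.04 for Psmb8, 5.20 for Tap1, 5.15 for Tap2 and 2.80 for Nlrc5. The neighbours Psmb9 and Psmb8, and Tap1 and Tap2, had ranges that overlapped in AL livers. In EOD livers the order of Psmb8 and Psmb9 was turned round, with a mean of 5.67 FPKM for Psmb8 and 4.29 FPKM for Psmb9, and their ranges overlapped there as well.

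Beta-2-microglobulin and the heavy chains are the parts of the molecule shown at the cell surface, and here they were the most abundant members. B2m and H2-K1 fell in EOD against AL livers, H2-D1 did not pass the test, and all 3 had smaller log2 fold changes there than any other member. B2m, the invariant light chain, was at 2279, 2243, 2128, 2164 and 2675 FPKM in EOD replicates 1 to 5, 2816, 2816, 2738, 2646 and 2464 FPKM in IF16 replicates 1 to 5, and 3082, 3146, 3010, 3011 and 2983 FPKM in AL replicates 1 to 5. All EOD libraries were below all AL libraries, and EOD replicate 5 was the highest of its group. The difference was -0.40 ± 0.08 (log2, SE; adjusted p = 0.00138) between EOD and AL livers. Between IF16 and AL livers it was -0.17 ± 0.08 (log2, SE; adjusted p = 0.289), although the groups did not overlap. Between EOD and IF16 livers the log2 fold change of B2m was -0.23, with an adjusted p of 0.062 in edgeR, 0.0403 without EOD replicate 5 and 0.0021 with DESeq2.

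H2-K1, the heavy chain of the H-2K molecule, was at 774, 741, 778, 685 and 805 FPKM in EOD, 924, 857, 801, 736 and 848 FPKM in IF16 and 952, 888, 837, 1018 and 958 FPKM in AL libraries. The EOD values lay below all AL values, by a small margin, and the IF16 values spanned both groups. It fell in EOD against AL livers by 0.29 ± 0.09 (log2, SE; adjusted p = 0.0183). That call was lost when AL replicates 4 and 5 were left out, at a log2 fold change of -0.18 with an adjusted p of 0.199, without AL replicate 4 alone (adjusted p = 0.0529) and with no filter on low counts (adjusted p = 0.0515). The log2 fold change of H2-K1 was -0.15 between IF16 and AL livers (adjusted p = 0.383).

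H2-D1, the heavy chain of the H-2D molecule, was at 317, 327, 325, 332 and 364 FPKM in EOD, 386, 343, 340.2, 295 and 345 FPKM in IF16 and 334, 317, 286, 417 and 393 FPKM in AL libraries. The groups overlapped throughout, and AL replicates 4 and 5 held the highest values. The log2 fold change was -0.06 ± 0.11 (log2, SE; adjusted p = 0.682) between EOD and AL livers and -0.03 ± 0.11 (log2, SE; adjusted p = 0.923) between IF16 and AL livers. Without AL replicates 4 and 5 it was 0.15 between EOD and AL livers (adjusted p = 0.267) and 0.17 between IF16 and AL livers (adjusted p = 0.431). A difference between H2-K1 and H2-D1 in their response was not tested.

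The TAP transporter carries peptides into the endoplasmic reticulum, and both of its subunits fell in EOD against AL livers. Tap1 was also called in IF16 against AL livers and Tap2 in EOD against IF16 livers; a difference between Tap1 and Tap2 in their response was not tested. Tap2 was at 1.60, 2.03, 1.79, 2.18 and 3.004 FPKM in EOD, 4.47, 4.24, 3.98, 3.85 and 4.37 FPKM in IF16 and 5.11, 6.07, 4.34, 5.45 and 4.80 FPKM in AL libraries. EOD values were well below both other groups, while IF16 values lay just under the AL range or at its lower end. Tap2 averaged 2.12 ± 0.542 FPKM in EOD, 4.18 ± 0.259 in IF16 and 5.15 ± 0.657 in AL livers (SD, n = 5 each). Tap2 fell in EOD against AL livers by 1.28 ± 0.13 (log2, SE; adjusted p = 3.13e-06), and in EOD against IF16 livers by 0.99 ± 0.13 (log2, SE; adjusted p = 0.000125). Between IF16 and AL livers its log2 fold change was -0.29 ± 0.13 (log2, SE; adjusted p = 0.229).

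Tap1 was at 2.23, 2.61, 2.83, 3.19 and 3.72 FPKM in EOD, 4.56, 3.02, 3.04, 1.94 and 2.80 FPKM in IF16 and 6.46, 6.43, 4.46, 4.19 and 4.47 FPKM in AL libraries. The EOD libraries lay below all AL libraries, IF16 replicate 1 reached into the AL range, and AL replicates 1 and 2 stood above the other AL libraries. Tap1 fell in EOD against AL livers by 0.82 ± 0.18 (log2, SE; adjusted p = 0.00207). It was the member called in IF16 livers, where it fell against AL livers by 0.75 ± 0.18 (log2, SE; adjusted p = 0.0254). That call was lost when any of AL replicates 1 and 2 and IF16 replicates 2, 3 and 5 was left out (adjusted p = 0.0525 to 0.0716), and it held when AL replicates 4 and 5 were absent, at a log2 fold change of -0.88 with an adjusted p of 0.0269. Between EOD and IF16 livers the log2 fold change of Tap1 was -0.07 ± 0.18 (log2, SE; adjusted p = 0.833).

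Tapbp encodes tapasin, which bridges the transporter and the empty class I molecule. It was at 17.4, 17.5, 17.9, 15.8 and 23.9 FPKM in EOD, 27.8, 25.1, 23.7, 25.7 and 27.7 FPKM in IF16 and 26.4, 27.8, 25.4, 30.7 and 32.1 FPKM in AL libraries. EOD values were below all AL values, and among the EOD libraries replicate 5 was the highest, within the IF16 range in FPKM. In TMM-scaled CPM, EOD replicate 5 was at 64.5 CPM, below the lowest IF16 library at 71.8 CPM. Tapbp fell in EOD livers by 0.62 ± 0.10 (log2, SE; adjusted p = 0.000208) against AL and by 0.49 ± 0.10 (log2, SE; adjusted p = 0.00363) against IF16. The log2 fold change between IF16 and AL livers was -0.13 ± 0.10 (log2, SE; adjusted p = 0.541).

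**Figure D2:**
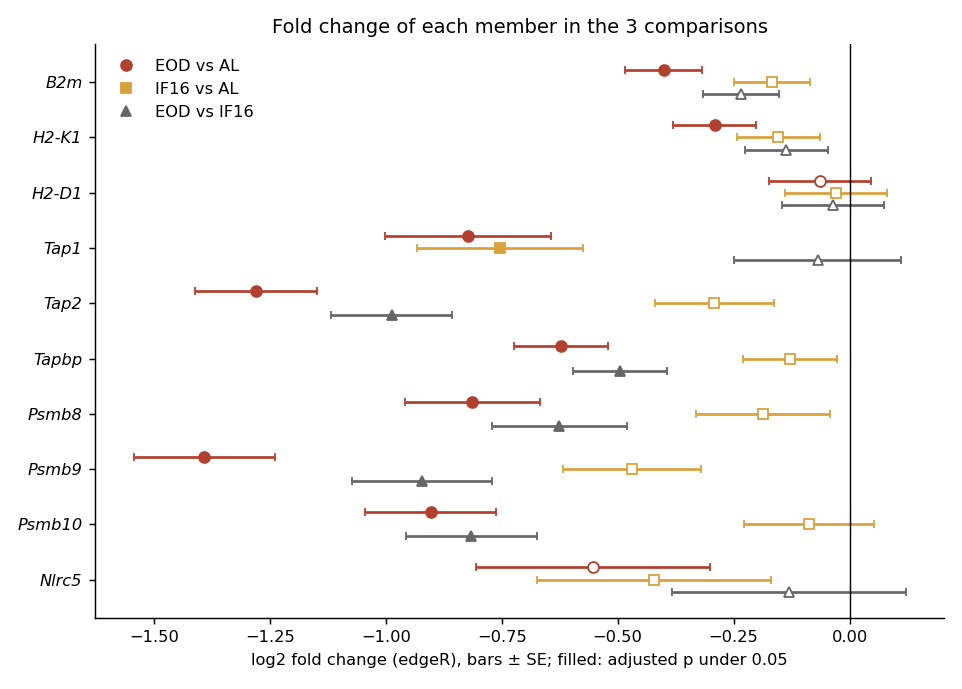
Log2 fold change (edgeR, x axis) of each member in the comparisons EOD vs AL, IF16 vs AL and EOD vs IF16, with bars of ± 1 SE; filled symbols have an adjusted p under 0.05. All point estimates are below 0, and 8, 1 and 5 of 10 symbols are filled in these comparisons.

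The inducible proteasome subunits fell together in EOD livers, and 1 of them, Psmb9, gave the largest fold of all members. Psmb9, which takes the place of Psmb6, was at 3.27, 4.12, 4.82, 5.07 and 4.14 FPKM in EOD, 9.99, 8.17, 8.03, 5.31 and 9.42 FPKM in IF16 and 12.5, 12.3, 10.03, 10.3 and 11.7 FPKM in AL libraries. The EOD libraries were below all others, IF16 replicate 4 came close to them, and all IF16 libraries were under the lowest AL value. Psmb9 fell in EOD livers by 1.39 ± 0.15 (log2, SE; adjusted p = 5.10e-06) against AL, a 2.62-fold difference, and by 0.92 ± 0.15 (log2, SE; adjusted p = 0.000703) against IF16. Between IF16 and AL livers its log2 fold change was -0.47 ± 0.15 (log2, SE; adjusted p = 0.0919), and DESeq2 gave an adjusted p of 0.0495.

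Psmb8, which takes the place of Psmb5, was at 4.47, 5.19, 6.72, 6.41 and 5.55 FPKM in EOD, 9.23, 8.05, 9.36, 8.07 and 9.21 FPKM in IF16 and 8.64, 11.02, 7.62, 10.8 and 12.2 FPKM in AL libraries. The EOD values were the lowest without overlap, and IF16 values fell inside the AL range. Psmb8 fell in EOD livers by 0.81 ± 0.15 (log2, SE; adjusted p = 0.000467) against AL and by 0.63 ± 0.15 (log2, SE; adjusted p = 0.00801) against IF16. The log2 fold change between IF16 and AL livers was -0.19 ± 0.14 (log2, SE; adjusted p = 0.53).

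Psmb10, which takes the place of Psmb7, was at 17.7, 19.9, 23.6, 24.1 and 24.3 FPKM in EOD, 40.4, 36.9, 40.3, 33.05 and 42.6 FPKM in IF16 and 32.3, 43.00, 33.1, 46.96 and 50.5 FPKM in AL libraries. EOD libraries again lay below all others, and AL replicates 2, 4 and 5 stood above AL replicates 1 and 3. Psmb10 fell in EOD livers by 0.90 ± 0.14 (log2, SE; adjusted p = 0.000148) against AL and by 0.82 ± 0.14 (log2, SE; adjusted p = 0.0011) against IF16. The log2 fold change between IF16 and AL livers was -0.09 ± 0.14 (log2, SE; adjusted p = 0.793), and 0.14 without AL replicates 4 and 5.

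The constitutive subunits replaced by these did not pass the test in any comparison. Psmb5 averaged 159 ± 11.6 FPKM in EOD, 164 ± 17.6 in IF16 and 177 ± 11.1 in AL livers, with a log2 fold change of -0.14 between EOD and AL livers (adjusted p = 0.324). Psmb6 averaged 204 ± 19.9 FPKM in EOD, 221 ± 31.8 in IF16 and 223 ± 16.3 in AL livers, with a log2 fold change of -0.12 (adjusted p = 0.468). Psmb7 averaged 149.7 ± 13.03 FPKM in EOD, 142 ± 9.86 in IF16 and 146 ± 18.9 in AL livers, with a log2 fold change of 0.05 (adjusted p = 0.785). The SDs are over 5 libraries each.

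The ratio of inducible to constitutive subunit within a library needs no scaling between libraries. In FPKM, the ratio of Psmb9 to Psmb6 was 0.0210 ± 0.00248 in EOD, 0.0384 ± 0.0132 in IF16 and 0.0510 ± 0.00555 in AL livers (SD, n = 5 each). The ratio of Psmb8 to Psmb5 was 0.0357 ± 0.00558 in EOD, 0.0542 ± 0.00874 in IF16 and 0.0568 ± 0.00966 in AL livers. That of Psmb10 to Psmb7 was 0.148 ± 0.0285 in EOD, 0.271 ± 0.0164 in IF16 and 0.287 ± 0.0755 in AL livers. Each of these ratios was lower in every EOD library than in every AL library. The mean log2 ratio differed between EOD and AL livers by -1.28 for Psmb9 to Psmb6, -0.67 for Psmb8 to Psmb5 and -0.94 for Psmb10 to Psmb7, each with p = 0.00794 in a two-sided exact permutation test, the smallest that 5 against 5 libraries allow, and 0.0143 after adjustment over 9 tests.

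Between EOD and IF16 livers the log2 ratio differed by -0.60 for Psmb8 to Psmb5 and -0.89 for Psmb10 to Psmb7, with an adjusted exact permutation p of 0.0143 for each. For Psmb9 to Psmb6 the difference was -0.81, with an adjusted exact permutation p of 0.0476, and IF16 replicate 4 (0.0208) lay inside the EOD range. That call was lost in 9 of 10 tests that left out an EOD or IF16 library, at adjusted exact permutation p of 0.0714 to 0.0952. Between IF16 and AL livers the differences were -0.48, -0.07 and -0.04 for Psmb9 to Psmb6, Psmb8 to Psmb5 and Psmb10 to Psmb7, with adjusted exact permutation p of 0.0714, 0.75 and 0.833. Without AL replicates 4 and 5, the EOD against AL differences were -1.31, -0.51 and -0.81 in that order of ratios, each with an adjusted exact permutation p of 0.0536, where 5 against 3 libraries allow no unadjusted p below 0.0357.

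**Figure D3:**
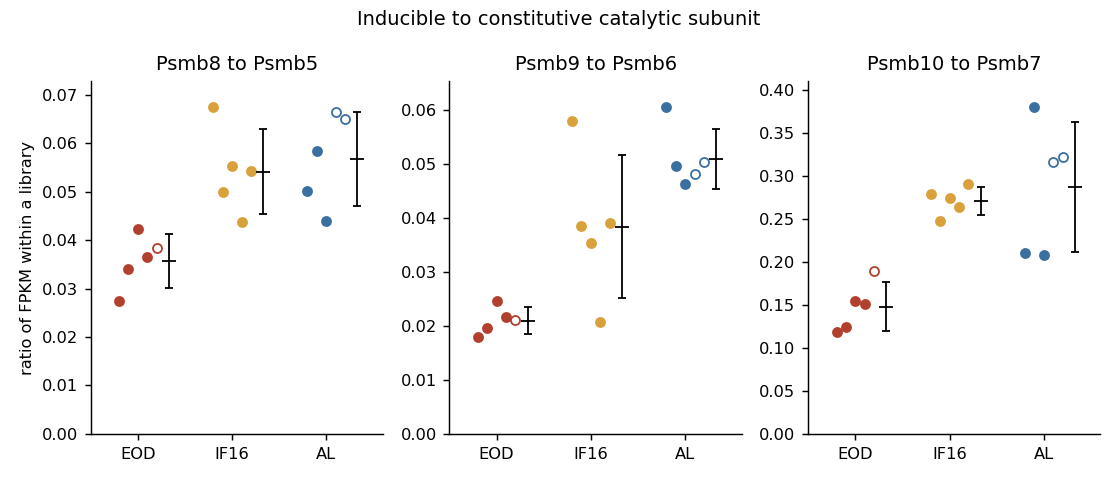
Ratio of the FPKM of each inducible subunit to that of the constitutive subunit it replaces (y axis), by group (EOD, IF16, AL), 1 point per library with the mean and SD of 5 libraries to the right; open points are AL replicates 4 and 5 and EOD replicate 5. In all 3 panels the EOD points lie below every AL point.

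Nlrc5, the transactivator of class I genes, was the least abundant member and among the most variable. It was at 1.34, 1.42, 1.24, 2.04 and 3.55 FPKM in EOD, 2.35, 1.91, 2.38, 1.65 and 2.09 FPKM in IF16 and 2.25, 4.11, 1.92, 3.19 and 2.52 FPKM in AL libraries. EOD replicates 1 to 3 were below all AL libraries, while EOD replicate 5 exceeded all AL libraries but replicate 2. The log2 fold change was -0.55 ± 0.25 (log2, SE; adjusted p = 0.0995) between EOD and AL livers, and -0.82 (adjusted p = 0.00489) without EOD replicate 5. Between IF16 and AL livers it was -0.42 ± 0.25 (log2, SE; adjusted p = 0.401).

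The members varied together across libraries to differing degrees. Over the 45 pairs of members, Pearson's r of log2 CPM across the 15 libraries had a median of 0.69 and ran from 0.16 to 0.97. The highest was that of Psmb8 with Psmb10, and the lowest that of Tap1 with H2-D1. After the group means were subtracted the median was 0.37, with a range of -0.24 to 0.92. Psmb8 with Psmb10 (0.92), Tap2 with Nlrc5 (0.90) and H2-K1 with H2-D1 (0.83) were then the highest, and Psmb9 with B2m the lowest. These correlations describe 15 libraries that share groups, depth scaling and the libraries that stood apart.

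Other heavy chains and class I-like genes were read from a list of 20, of which 17 were tested. In EOD against AL livers 7 were lower and 4 were higher, with a median log2 fold change of -0.27 against -0.011 over all tested genes. That is 41.2% lower and 64.7% called in either direction, against 17.6% and 35.2% of all tested genes. The lowest unadjusted p belonged to H2-K2, H2-Q4 and H2-Q6. H2-K2 averaged 5.98 ± 1.53 FPKM in EOD, 10.6 ± 1.47 in IF16 and 20.8 ± 6.76 in AL livers (SD, n = 5 each). H2-Q4 averaged 8.90 ± 2.29 FPKM in EOD, 15.8 ± 2.25 in IF16 and 18.97 ± 4.23 in AL livers. H2-Q6 averaged 7.93 ± 1.25 FPKM in EOD, 12.5 ± 3.41 in IF16 and 19.3 ± 5.91 in AL livers. In all 3 the EOD libraries lay below the AL libraries. In EOD against AL livers H2-K2 fell by 1.80 ± 0.21 (log2, SE; adjusted p = 9.11e-06), H2-Q4 by 1.09 ± 0.16 (log2, SE; adjusted p = 7.53e-05) and H2-Q6 by 1.29 ± 0.20 (log2, SE; adjusted p = 0.000192). H2-K2 was the gene of this list called by edgeR in IF16 against AL livers (log2 fold change -0.97, adjusted p = 0.0125). That is 5.88% of the 17 tested, against 3.5% of all tested genes. Without AL replicates 4 and 5 the log2 fold change of H2-K2 was -0.77 and no longer passed the test (adjusted p = 0.0636). In EOD against AL livers the list counted 6 lower and 2 higher without those libraries, and 7 lower and 5 higher without EOD replicate 5, when Hfe, a class I-like regulator of iron uptake, also passed (log2 fold change 0.35, adjusted p = 0.00649). Some H2 genes of this list, such as H2-K2 and the H2-Q genes, are near-identical to one another in places, so their counts are uncertain.

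Among 12 genes of peptide loading and trimming, 5 were lower and none higher in EOD than in AL livers (median log2 fold change -0.18). The 5 are 41.7% of the list, against 17.6% of all tested genes lower and 35.2% called in either direction. Without AL replicates 4 and 5, 3 were lower and 1 higher, and without EOD replicate 5, 5 were lower and 1 higher. The higher gene was Canx, the chaperone calnexin, with a log2 fold change of 0.49 (adjusted p = 0.0483) without the AL libraries and 0.41 (adjusted p = 0.0403) without EOD replicate 5. Calr, the chaperone calreticulin, averaged 229.7 ± 38.1 FPKM in EOD, 260.4 ± 32.5 in IF16 and 432 ± 81.9 in AL livers (SD, n = 5 each). It fell against AL in EOD livers by 0.91 ± 0.14 (log2, SE; adjusted p = 0.000156) and in IF16 livers by 0.73 ± 0.14 (log2, SE; adjusted p = 0.00925). Calr was the gene of this list called in IF16 against AL livers, 8.33% of the list against 3.5% of all tested genes. Without AL replicates 4 and 5 the IF16 log2 fold change of Calr was -0.50 and no longer passed the test (adjusted p = 0.0597). Tapbpl, a relative of tapasin that edits peptides, fell in EOD against AL livers by 0.79 ± 0.12 (log2, SE; adjusted p = 0.000122). Sec61a1, a subunit of the translocation channel, fell in EOD against AL livers by 0.62 ± 0.09 (log2, SE; adjusted p = 0.000104). Pdia3 and Sec61b were the other 2 lower genes. Pdia3 had a log2 fold change of -0.44, and -0.21 (adjusted p = 0.251) without AL replicates 4 and 5. Sec61b had -0.46, and -0.32 (adjusted p = 0.12) without them.

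Of 9 constitutive catalytic subunits, activators and assembly factors, 2 (22.2%) were lower in EOD than in AL livers, near the 17.6% of all tested genes. In IF16 against AL livers none was called by edgeR or DESeq2, and 0 had an unadjusted p under 0.05. Of all tested genes, edgeR called 3.5% in that comparison. Psme1, a subunit of the proteasome activator that interferon-gamma induces, averaged 52.1 ± 4.31 FPKM in EOD, 64.6 ± 3.83 in IF16 and 68.8 ± 4.78 in AL livers, and fell in EOD against AL livers by 0.39 ± 0.10 (log2, SE; adjusted p = 0.0058). Psmg2, an assembly chaperone, fell by 0.31 ± 0.12 (log2, SE; adjusted p = 0.0499), and did not pass the test at -0.11 (adjusted p = 0.525) without AL replicates 4 and 5, or at -0.26 (adjusted p = 0.114) without EOD replicate 5. Of 6 cytosolic peptidases, 1 (16.7%) was lower in EOD than in AL livers, also near the share of all tested genes. It was Thop1, with a log2 fold change of -0.43 (adjusted p = 0.0115), and of -0.32 (adjusted p = 0.0978) without AL replicates 4 and 5.

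Of 21 genes of interferon-gamma signalling and class I regulation, 6 were lower and 1 higher in EOD than in AL livers, with a median log2 fold change of -0.12. The 33.3% called in either direction is near the 35.2% of all tested genes, and 28.6% were lower, against 17.6% of all tested genes. None was called in IF16 against AL livers by edgeR, which called 3.5% of all tested genes. In that comparison 6 had an unadjusted p under 0.05, and DESeq2 called 2 lower and 1 higher. Irf1, a transcription factor that interferon-gamma induces, was at 6.72, 9.29, 6.20, 6.83 and 10.2 FPKM in EOD, 12.7, 8.83, 6.53, 7.29 and 7.71 FPKM in IF16 and 10.3, 11.6, 6.83, 19.4 and 22.9 FPKM in AL libraries. AL replicates 4 and 5 were the highest, and AL replicate 3 lay among the EOD values. Irf1 fell in EOD against AL livers by 0.86 ± 0.28 (log2, SE; adjusted p = 0.0265), and the log2 fold change was -0.23 (adjusted p = 0.407) without AL replicates 4 and 5.

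Irf2, a factor related to Irf1, fell in EOD against AL livers by 0.59 ± 0.13 (log2, SE; adjusted p = 0.00222). Nfyb, a subunit of the factor that binds CCAAT, fell by 0.32 ± 0.09 (log2, SE; adjusted p = 0.00893). Rfxap, a subunit of the RFX complex that binds the SXY module, rose in EOD against AL livers, with a log2 fold change of 0.41 ± 0.11 (log2, SE; adjusted p = 0.00931). Without AL replicates 4 and 5 the list counted 3 lower and 3 higher genes in EOD against AL livers, and without EOD replicate 5 it counted 5 lower and 1 higher.

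Of 18 listed interferon-gamma-induced GTPases and chemokines, 15 were tested, and 5 were lower and none higher in EOD than in AL livers (median log2 fold change -0.38). The 5 are 33.3% of the list, against 17.6% of all tested genes lower and 35.2% called in either direction. In IF16 against AL livers edgeR called none, against 3.5% of all tested genes. In that comparison 3 had an unadjusted p under 0.05, and DESeq2 called 2 lower. Without EOD replicate 5 edgeR called 1 there, the GTPase Irgm1 (log2 fold change -0.45, adjusted p = 0.0334). Gbp7, a guanylate-binding protein, was at 0.586, 0.758, 0.731, 0.911 and 1.21 FPKM in EOD, 2.43, 1.95, 1.98, 1.18 and 1.65 FPKM in IF16 and 2.26, 2.54, 1.58, 2.12 and 2.06 FPKM in AL libraries. All EOD libraries lay below all AL libraries. Gbp7 fell in EOD livers by 1.33 ± 0.19 (log2, SE; adjusted p = 6.09e-05) against AL and by 1.13 ± 0.19 (log2, SE; adjusted p = 0.000767) against IF16. Igtp, an immunity-related GTPase, fell in EOD against AL livers by 0.75 ± 0.24 (log2, SE; adjusted p = 0.0224). Cxcl10, a chemokine for T cells, was at 1.28, 1.91, 1.58, 1.99 and 2.55 FPKM in EOD libraries and 2.08, 1.33, 1.44, 87.1 and 18.00 FPKM in AL libraries. Its log2 fold change of -3.59 (adjusted p = 0.0231) rested on AL replicates 4 and 5, without which it was 0.25 (adjusted p = 0.599). The list then counted 2 lower genes in EOD against AL livers, and it counted 6 without EOD replicate 5.

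**Figure D4:**
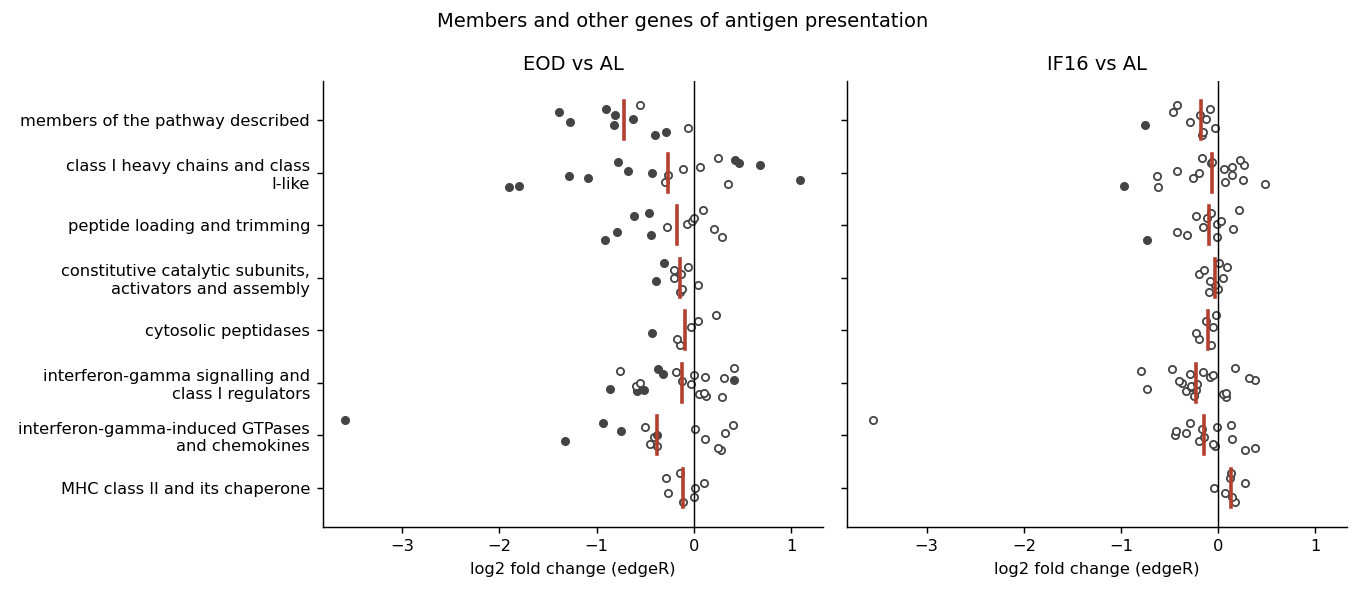
Log2 fold change (edgeR, x axis) of every tested gene of the members and 7 further lists in EOD vs AL (left) and IF16 vs AL (right), 1 point per gene; filled points have an adjusted p under 0.05 and the red bar is the list's median. The members' median is -0.72 in EOD vs AL and -0.18 in IF16 vs AL.

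Transcripts of cell types other than hepatocytes were present in all groups, and in bulk tissue fewer cells of a type cannot be told apart from less RNA per cell. Of the 8 hepatocyte markers, 1 (12.5%) was lower in EOD than in AL livers, against 17.6% of all tested genes. In EOD against IF16 livers 2 (25%) were lower, against 8.15% of all tested genes. The 13 T and NK cell markers summed to 4.87 to 7.08 CPM in EOD, 5.12 to 7.42 CPM in IF16 and 6.13 to 7.94 CPM in AL libraries. Only 2 of the 13 had a mean of at least 1 CPM, and 1 of 9 tested, Cd4, was lower in EOD than in AL livers (log2 fold change -1.26). That is 11.1% of those tested, against 17.6% of all tested genes called lower. The 10 Kupffer cell and macrophage markers summed to 193 to 459 CPM in EOD, 183 to 504 CPM in IF16 and 146 to 349 CPM in AL libraries. The 6 dendritic cell markers summed to 3.64 to 6.99 CPM in EOD, 5.16 to 7.73 CPM in IF16 and 4.09 to 6.80 CPM in AL libraries.

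The 7 B and plasma cell markers summed to 8.55 to 14.2 CPM in EOD, 10.2 to 16.9 CPM in IF16 and 7.81 to 41.7 CPM in AL libraries. AL replicates 1 to 3 held 30.0, 41.7 and 31.3 CPM, and AL replicates 4 and 5 held 7.81 and 8.33 CPM. In EOD against AL livers 2 of 7 tested (28.6%) were lower, against 17.6% of all tested genes. The 8 sinusoidal endothelium markers summed to 189 to 247 CPM in EOD and 200.3 to 217 CPM in IF16 libraries, above the 102 to 163 CPM of AL libraries. AL replicates 4 and 5 were the lowest, at 112 and 102 CPM. In EOD against AL livers 6 of 8 tested (75%) were higher, against 17.6% of all tested genes. In IF16 against AL livers 5 of 8 (62.5%) were higher, against 1.4% of all tested genes. The 6 stellate cell markers summed to 277 to 404 CPM in EOD, 289 to 314 CPM in IF16 and 186 to 307 CPM in AL libraries. AL replicates 4 and 5 were the lowest, at 186 and 188 CPM. With 2 of 6 tested higher and 1 lower in EOD than in AL livers, 50% were called in either direction, against 35.2% of all tested genes. The 5 cholangiocyte markers summed to 37.9 to 53.5 CPM in EOD, 32.9 to 45.9 CPM in IF16 and 37.9 to 61.9 CPM in AL libraries. Of these markers 1 of 5 tested (20%) was higher in EOD than in AL livers, near the 17.6% of all tested genes. In EOD against AL livers 1 of 10 tested Kupffer cell and macrophage markers (10%) was higher, against 17.6% of all tested genes. Of the dendritic cell markers 1 of 5 tested (20%) was lower, near the 17.6% of all tested genes. Of 6 neutrophil markers 2 were tested, and 2 of 2 were lower in EOD than in AL livers, against 17.6% of all tested genes. The 6 summed to 30.7 and 28.3 CPM in AL replicates 4 and 5. They summed to 1.29 to 1.66 CPM in AL replicates 1 to 3 and 1.12 to 4.01 CPM in EOD libraries. Among the AL libraries only replicates 4 and 5 thus lay above the EOD range. None of the markers in these lists was at 0 in all libraries. The part of these cell types in the members' levels was not tested.

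The genes whose pattern was most like that of the members were sought among 10744 protein-coding genes with a mean of at least 1 CPM, by Pearson's r with the mean of the members' standardised log2 CPM over 15 libraries. The 5 highest were Apol9b (0.96), H2-Q6 (0.95), H2-Q4 (0.95), Gsdmd (0.95) and Pyroxd2 (0.94). Apol9b averaged 86.8 CPM in EOD, 114 CPM in IF16 and 144 CPM in AL livers. Gsdmd, which encodes the pore-forming gasdermin D, averaged 14.4 CPM in EOD, 20.8 CPM in IF16 and 27.0 CPM in AL livers. Within groups, with the group means subtracted, the 5 highest were Msh6 (0.89), Apol9b (0.88), Siglec1 (0.86), Apol9a (0.86) and Cfp (0.85).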

How the data were processed

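Poly(A) mRNA was purified from frozen liver for libraries of the NEBNext Ultra type, as the labels' protocols state. The submitters' processing notes list the build mm10, STAR 2.5, DESeq2 and HTSeq 0.6.1, with no role for any. The authors deposited raw whole-number counts per gene and FPKM values, and FPKM equalled the deposited count over gene length and library total in 100% of cells (relative tolerance 1e-08). The deposited group columns of FPKM are means of 5 libraries and served as a check only.

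Counts of 15 libraries were tested in R 4.3.3 with edgeR 4.0.16 (TMM scaling, filterByExpr with a minimum count of 10, 1 fit over all groups, robust quasi-likelihood F test). Every adjusted p of the main edgeR fit is Benjamini-Hochberg over 13837 tested genes of 35275, at a threshold of 0.05. In DESeq2, other filters and fits with libraries left out, it was adjusted over the genes that each of them kept. An exact permutation p was adjusted over 9 ratio tests (SciPy 1.17.1). An SE was obtained by dividing the log2 fold change by the square root of F, and the common biological coefficient of variation was 0.211. Subunit ratios are of deposited FPKM, with no pseudocount. Pairs of libraries in a group differed by 23.1 to 201 chi-square per degree of freedom over 30 pairs, so none was counted as a repeat. The fit was tested on simulated data.

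The members and lists were chosen with earlier results of these data known. Named genes outside the members are, in each list, up to 3 with the smallest unadjusted p against AL among those called, plus Psmb5, Psmb6, Psmb7 and Irf1, with 1 further gene of that rule not reported here; Pdia3, Sec61b, Canx, Hfe, Irgm1, Cd4, and the genes of the last section were named after their values were seen. H2-L, Gbp5 and Gbp6 of the lists had no match by identifier. Alternatives were DESeq2 1.42.0, its size factors in edgeR, other filters, 2 groups alone, a replicate term, each library left out, AL replicates 4 and 5 left out, and limma 3.58.1 on log2 of FPKM plus 1 or 0.1. The floor of 3 counts covers counting error only. Leaving out AL replicates 4 and 5, or EOD replicate 5, for the pathway lists was chosen after seeing the data.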

Additional observations from a re-analysis of the deposited data

Results flagged for a closer look

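In groups of 5 libraries, 39 sets of values were examined for a library far from the rest (Dixon's ratio of gap to range over 0.71), and 4 were found, where chance gives about 1 in 20. Psmb9 was 15.6 CPM in IF16 replicate 4, against 23.9 to 27.1 CPM in the other IF16 libraries. H2-K1 was 1402 CPM in the same library, against 1569 to 1631 CPM in the others. B2m was 2147 CPM in EOD replicate 5, against 1924 to 1958 CPM in the other EOD libraries. B2m was 2531 CPM in AL replicate 1, against 2620 to 2642 CPM in the other AL libraries. The cause of these values was not tested.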

How the results depend on the processing

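For the members, 30 log2 fold changes were recomputed under 25 alternatives, which gave 750 values. Of these, 723 kept their direction and their side of the threshold, 9 no longer passed it, 6 newly passed it and 12 changed sign; 19 of the 30 log2 fold changes kept both under every alternative. H2-D1 ranged from -0.098 to 0.050 (IF16 vs AL), -0.12 to 0.015 (EOD vs AL) and -0.065 to 0.0073 (EOD vs IF16) when single libraries were left out, and stood at 0.17 (IF16 vs AL) and 0.15 (EOD vs AL) without AL replicates 4 and 5. Psmb10 in IF16 vs AL ranged from -0.18 to 0.0018 with single libraries left out and was 0.14 without AL replicates 4 and 5, and Tapbp in IF16 vs AL was 0.0075 without them. Tap1 in EOD vs IF16 ranged from -0.18 to 0.10 with single libraries left out. The log2 ratio of Psmb8 to Psmb5 in IF16 vs AL ranged from -0.15 to 0.0085 with single libraries left out and was 0.087 without AL replicates 4 and 5, and that of Psmb10 to Psmb7 from -0.15 to 0.068, and 0.085. The members called in IF16 vs AL were 1, with 2 by DESeq2, 0 by limma with no minimum FPKM, and 0 to 1 with single libraries left out. Genes called in IF16 vs AL were 484, with 937 by DESeq2, 277 by limma with no minimum, and 241 to 619 with single libraries left out (lowest without IF16 replicate 3). Those in EOD vs IF16 were 2229, and 1418 to 3383 with single libraries left out (lowest without IF16 replicate 5, highest without EOD replicate 5). Subunit ratios called were 6 of 9, with 2 without AL replicates 4 and 5, where fewer libraries raise the lowest possible p to 0.0357. Samples with the same replicate number were not shown to be paired: 5 of 15 such pairs had a correlation of deviations over 0.1, with a median of 0.05. Of pairs with different replicate numbers, 12 of 60 were over 0.1, with a median of -0.005 and a highest value of 0.35, against 0.22 for the same number. With replicate number as a block, genes called were 492, 4809 and 2226 and members called 1, 8 and 5 for IF16 vs AL, EOD vs AL and EOD vs IF16, and subunit ratios called were 0, since a sign-flip test over 5 pairs reaches no p below 0.0625. The cause of the other changes was not tested. Counting error weighs more on Nlrc5 and the chemokines than on B2m and the heavy chains.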

Other observations

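MHC class II genes, which present peptides of ingested proteins on macrophages, dendritic cells and B cells, were read beside the class I genes. None of 7 tested class II genes was called in any comparison by edgeR or DESeq2, and 0 had an unadjusted p under 0.05. Of all tested genes, edgeR called 3.5% in IF16 vs AL, 35.2% in EOD vs AL and 16.1% in EOD vs IF16. A difference in response between class I and class II genes was not tested. The summed level of the 8 listed genes was 99.1 to 259.7 CPM in EOD, 123 to 282 CPM in IF16 and 128 to 236 CPM in AL libraries, and the ranges overlapped. The median log2 fold change of the 7 was -0.11 between EOD and AL livers and 0.13 between IF16 and AL livers. Between EOD and IF16 livers it was -0.28, where that of the members was -0.36.

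Within the list of class I-like genes, 4 were higher in EOD than in AL livers. Fcgrt, the receptor that recycles IgG and albumin, had a log2 fold change of 0.42 (adjusted p = 0.0022). Cd1d1, which presents lipids to NKT cells, had 0.46 (adjusted p = 0.024). H2-T24 had 0.68 (adjusted p = 0.0182) and H2-Q2 1.10 (adjusted p = 0.041). H2-Q2 was at a low level, 0.439 to 1.03 CPM in EOD and 0.163 to 0.844 CPM in AL libraries, and these ranges overlapped. Without AL replicates 4 and 5, Cd1d1 (log2 fold change 0.38, adjusted p = 0.117) and H2-T24 (log2 fold change 0.50, adjusted p = 0.0961) no longer passed the test, and H2-Q2 had a log2 fold change of 1.76 (adjusted p = 0.00466). H2-Q10, a secreted class I molecule of liver, was lower at -0.43 (adjusted p = 0.0095) and averaged 496 ± 73.4 FPKM in EOD and 677 ± 35.3 FPKM in AL livers (SD, n = 5 each). All adjusted p are from edgeR.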
